A study of Mus musculus with 14 samples.

Results

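Same-chromosome contacts that spanned 2 Mb or more were collected from promoter capture Hi-C (PCHi-C) of mouse cranial neural crest cells (CNCCs). A contact is a pair of HindIII restriction fragments, of which at least 1 is a bait, a fragment chosen because it carries a promoter. A pair was kept when both fragments lay on the same autosome (chromosomes 1 to 19), when their midpoints were at least 2 Mb apart, and when both libraries of at least 1 condition listed it with a CHiCAGO score of 5 or more. The rule kept 7975 pairs of the 257475 pairs at such distances that any library listed, and of 803927 same-chromosome pairs in all. The pairs were thus chosen by their scores and distances, so their distances, replication and score levels are described below without a p-value.

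The 14 libraries comprise 7 conditions with 2 replicates each. At E10.5 (E for embryonic day), wild-type (WT) CNCCs came from the frontonasal process (FNP), from the maxillary (Mx) and mandibular (Md) parts of the first pharyngeal arch, and from the second pharyngeal arch (PA2). PA2 CNCCs of E10.5 Hoxa2EGFP/EGFP embryos form the knockout, in which EGFP replaces Hoxa2 on both alleles. The pinna, the outer ear that grows from PA2, gave WT CNCCs of 2 later stages, E12.5 followed by E14.5. By the study's methods, WT cells were sorted by RFP from Wnt1::Cre;ROSA-RFP embryos and knockout cells by GFP, so that the knockout differs from WT PA2 in reporter as well as genotype, and embryos of both sexes were pooled. E14.5 tissue was dissociated with papain and all other tissue with trypsin. FNP, Mx and Md express no Hox genes, whereas PA2 and the pinna express Hoxa2. No expression was measured in these files, so the cell identity could not be checked against marker genes.

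In the nucleus, chromatin is folded so that most promoter contacts stay within topologically associating domains, which rarely exceed a few Mb. Contacts across several domains are known between genes held in the same nuclear body, as with histone genes and small nuclear RNA (snRNA) genes, and between genes repressed by Polycomb complexes, which include most homeobox genes and other genes for developmental transcription factors. The CHiCAGO score weighs how far the reads of a pair exceed a background that falls with distance, so a distant pair needs few reads to be listed. Read counts were not among the files, and the depth behind each score is unknown.

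The promoters at both ends of 3 contacts, and that of Cdkn2c, are printed because the scores of these pairs carry the results below. Each runs 5′ to 3′ on the strand of the gene, from 250 bases before the RefSeq transcription start to 50 after it (GRCm38.p6). In the 2 histone promoters the capitals mark the CCAAT box, the TATAAA box and the octamer ATTTGCAT on either strand, and in the other promoters each CG dinucleotide. The first 2 lie at chr13:23750838-23751137 (plus strand) and chr13:21716134-21716433 (minus strand), and RefSeq names the genes H2ac4 and H2bc13.
Hist1h2ab: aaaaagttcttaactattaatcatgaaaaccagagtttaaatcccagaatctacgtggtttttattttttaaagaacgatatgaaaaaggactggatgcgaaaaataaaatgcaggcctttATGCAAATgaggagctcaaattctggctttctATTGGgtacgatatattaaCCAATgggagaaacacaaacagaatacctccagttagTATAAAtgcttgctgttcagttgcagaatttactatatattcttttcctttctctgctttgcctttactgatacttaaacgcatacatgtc
Hist1h2bl: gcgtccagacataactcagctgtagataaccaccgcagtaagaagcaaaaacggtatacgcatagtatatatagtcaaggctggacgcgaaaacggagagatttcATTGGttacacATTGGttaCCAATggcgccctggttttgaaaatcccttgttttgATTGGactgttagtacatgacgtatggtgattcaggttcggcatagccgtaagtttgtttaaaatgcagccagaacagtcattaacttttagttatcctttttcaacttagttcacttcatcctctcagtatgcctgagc
Foxd1 at chr13:98353995-98354294 (plus strand) and Otp at chr13:94875386-94875685 (plus strand) hold 15 and 20 CG dinucleotides.
Foxd1: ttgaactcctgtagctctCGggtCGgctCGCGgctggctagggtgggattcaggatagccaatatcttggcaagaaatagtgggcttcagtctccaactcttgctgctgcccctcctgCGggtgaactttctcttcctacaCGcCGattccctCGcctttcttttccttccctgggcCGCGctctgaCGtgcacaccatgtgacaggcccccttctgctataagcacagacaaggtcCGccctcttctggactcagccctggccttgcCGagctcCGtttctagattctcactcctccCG
Otp: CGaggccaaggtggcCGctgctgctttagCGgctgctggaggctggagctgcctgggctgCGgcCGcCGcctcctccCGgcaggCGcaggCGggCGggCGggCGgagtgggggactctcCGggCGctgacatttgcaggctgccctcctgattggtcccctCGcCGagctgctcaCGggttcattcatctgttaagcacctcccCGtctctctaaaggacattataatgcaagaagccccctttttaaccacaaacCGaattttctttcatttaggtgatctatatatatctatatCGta
Tal1 at chr4:115057561-115057860 (plus strand), Dmrta2 at chr4:109977775-109978074 (plus strand) and Cdkn2c at chr4:109666707-109667006 (minus strand) hold 22, 26 and 33. A further Tal1 promoter in the same bait fragment (chr4:115056176-115056475) holds 11 and is not printed.
Tal1: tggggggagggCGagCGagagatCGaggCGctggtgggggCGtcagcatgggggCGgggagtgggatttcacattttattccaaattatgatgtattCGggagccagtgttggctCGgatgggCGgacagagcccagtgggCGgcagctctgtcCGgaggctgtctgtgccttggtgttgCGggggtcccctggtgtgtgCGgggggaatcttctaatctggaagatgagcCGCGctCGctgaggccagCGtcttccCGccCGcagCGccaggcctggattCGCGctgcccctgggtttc
Dmrta2: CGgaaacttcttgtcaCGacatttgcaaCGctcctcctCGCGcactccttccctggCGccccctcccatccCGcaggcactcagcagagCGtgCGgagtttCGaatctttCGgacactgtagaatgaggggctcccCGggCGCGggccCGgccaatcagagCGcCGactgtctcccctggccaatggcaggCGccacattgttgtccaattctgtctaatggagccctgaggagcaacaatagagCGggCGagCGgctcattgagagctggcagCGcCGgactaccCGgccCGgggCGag
Cdkn2c: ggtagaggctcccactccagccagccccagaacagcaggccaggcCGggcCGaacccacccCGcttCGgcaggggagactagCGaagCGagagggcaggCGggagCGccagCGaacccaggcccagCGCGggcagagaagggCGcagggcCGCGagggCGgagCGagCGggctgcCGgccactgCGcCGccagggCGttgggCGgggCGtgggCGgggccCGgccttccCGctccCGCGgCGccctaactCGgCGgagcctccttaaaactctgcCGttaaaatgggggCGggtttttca
Over all 31396 RefSeq promoters of chromosomes 1 to 19, the median was 7 CG dinucleotides. On either strand, CCAAT occurred in 37.3% of them, the TATAAA box in 13.6% and the octamer ATTTGCAT in 1.75% (no motif contains another). Hist1h2ab held all 3 motifs and Hist1h2bl held CCAAT. These matches are a description of the letters and show no binding.

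The lists held between 111228 and 178953 pairs within an autosome per library. Between 6.81% and 33.4% of these spanned 2 Mb or more in the WT libraries, and 5.39% and 7.38% in the knockout libraries. The first Md library and the second library of E12.5 pinna, whose file names say merged, had the highest shares, 26.4% and 33.4%, and 46.5% and 62.7% of all their listed pairs joined different chromosomes, against 2.64% to 5.61% in the other 12 libraries. Without both conditions that contain these libraries, 6356 contacts remained under the same rule.

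The contacts were concentrated just beyond the limit. Their median distance was 3.07 Mb, 3853 contacts (48.3%) spanned 2 to 3 Mb, and 462 contacts (5.79%) spanned 50 Mb or more, up to 168 Mb. Just inside the limit, Hist1h4k (2.00001 Mb), Rsad2 (2.00005 Mb) and Clec9a (2.00012 Mb) had contacts in 3, 2 and 2 conditions, and just outside it, Prpf19 (1.99992 Mb), Vrk1 (1.99988 Mb) and Scfd1 (1.99965 Mb) had pairs listed in both libraries of 1 condition each. Of all listed pairs at 2 to 3 Mb, 8.70% were listed in both libraries of a condition, and this share declined to 0.807% at 20 to 50 Mb and was 1.18% beyond 50 Mb. For comparison, 30.0% of the 546452 pairs under 2 Mb met the same criterion.

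Most contacts were listed in both libraries of a single condition only. This held for 5698 contacts (71.4%). Of these, 2064 were listed in no other library, and the rest were also listed in single libraries of other conditions. Both libraries of 4 or more conditions listed 8.26% of contacts, and those of all 7 conditions listed 71 contacts. All 71 spanned less than 5 Mb. Of the contacts at 2 to 3 Mb, 11.3% were in 4 or more conditions, against 1.52% of those at 20 to 50 Mb. Md held 2264 contacts, E14.5 pinna 2498, Mx 1857, the knockout 1789, E12.5 pinna 1552, FNP 1539 and WT PA2 1183. The largest overlap as a share of the smaller set was between E12.5 and E14.5 pinna, with 697 contacts that made up 44.9% and 27.9% of the respective sets.

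**Figure D1:**
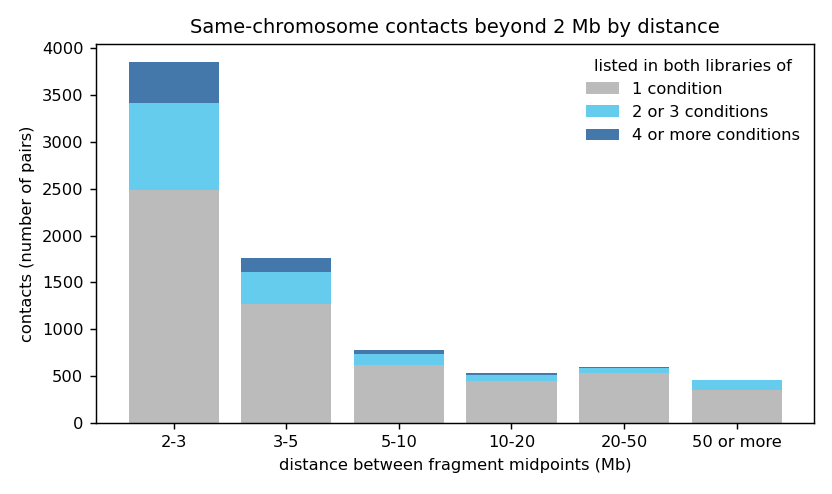
Number of contacts beyond 2 Mb (vertical axis) in bands of the distance between fragment midpoints in Mb (horizontal axis). Colours give the number of conditions in which both libraries listed the contact, and 3853 of 7975 contacts lie in the band of 2 to 3 Mb.

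The knockout libraries stood apart from the other libraries. Of the 1789 contacts of the knockout, 1222 (68.3%) were not listed in both libraries of any other condition, against 31.0% to 50.04% in the 6 WT conditions. A distance of 10 Mb or more was spanned by 600 (33.5%), against 5.80% to 18.5%. At least 1 library of another condition listed 55.9% of the knockout's contacts, as opposed to 84.5% to 92.1% of those of each WT condition. At 10 Mb or more, the 2 knockout libraries shared 600 pairs, which is 25.3% of the shorter list, whereas the other 90 combinations of 2 libraries shared at most 6.79% and same-condition WT replicates 2.24% to 4.46%. At 2 to 10 Mb the knockout libraries shared 32.8% against at most 30.1% elsewhere, and under 2 Mb 60.1% against at most 55.9%. The source of the shared distant pairs was not tested. Without the knockout, 6753 contacts remained, 68.9% of which were in 1 condition and 130 in all 6, with a median of 2.96 Mb.

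**Figure D2:**
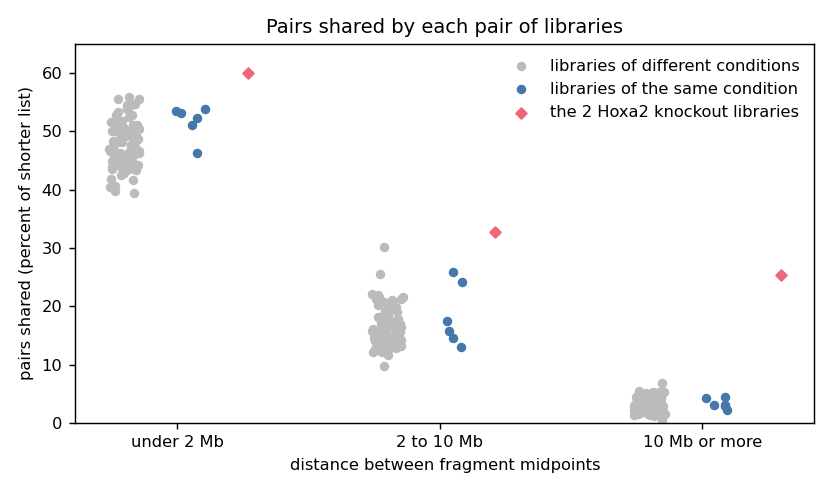
Pairs listed by both members of each of the 91 combinations of 2 libraries, as percent of the shorter list (vertical axis), in 3 classes of distance (horizontal axis). At 10 Mb or more the knockout libraries shared 25.3% and all other combinations 6.79% or less.

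Next, far contacts were compared with pairs under 2 Mb that were listed in both libraries of the same condition, with each condition as 1 value (n = 7). Replicates shared 14.7% ± 7.70 (SD) of the shorter list of far pairs and 52.9% ± 4.09 of near pairs, and far was lower in 7 of 7 conditions. The median score was 8.55 ± 0.673 for far and 7.38 ± 0.149 for near pairs. It was higher for far pairs in 6 conditions, and in the knockout the medians were 7.04 and 7.06. Listing in both libraries and the score were used to choose the contacts, so no p-value is given for either. Both measures were still among the 6 over which the p-values below were adjusted. The far other ends, the fragments that the bait contacts, had a lower GC content (42.3% ± 0.511 against 45.2% ± 0.179) and were shorter (median 2658 ± 65.2 bp against 3123 ± 95.2 bp), each in 7 of 7 conditions (two-sided exact sign-flip test, p = 0.0156, the smallest possible, adjusted p = 0.0313 over 6 measures). Against near pairs of 0.5 to 2 Mb only, these differences were much smaller. Far minus near was then -0.563 percentage points for GC content (adjusted p = 0.0234, same test) and -127 bp for length (adjusted p = 0.0313). Libraries of different conditions shared 39.4% to 55.9% of the shorter list of near pairs. The 7 conditions thus list many of the same fragments and are not independent. The p-values here and in the next paragraph may therefore be too small.

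For baits at the other end and for baits of developmental transcription factors, far and near pairs did not differ past the threshold. Another bait was the other end of 18.2% ± 2.05 of far and of 18.1% ± 1.23 of near pairs (exact p = 0.719, adjusted p = 0.719). A developmental transcription factor gene was at a bait of 5.88% ± 1.66 of far and of 6.38% ± 0.637 of near pairs (exact p = 0.297, adjusted p = 0.356). Against near pairs of 0.5 to 2 Mb only, a bait at the other end was more frequent by 4.38 percentage points in far pairs and the difference for a transcription factor bait was -4.75 points, both with an exact p = 0.0156 and adjusted p = 0.0234. With a score threshold of 10, the difference for baits at the other end was turned, at -3.91 points (exact p = 0.0156).

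Of the 71 contacts listed in all 14 libraries, the one with the highest median score joined the promoter of Steap1, a metalloreductase of the plasma membrane (chr5:5745964-5755438), to a fragment without an annotated start site 2.24 Mb away (chr5:7992260-7996978). Its scores were 33 and 33 in FNP, 52.3 and 96.3 in Mx, 33 and 104 in Md, 33 and 65.02 in WT PA2, 32.2 and 31.9 in the knockout, 81.2 and 146 in E12.5 pinna, and 48.4 and 180 in E14.5 pinna. The knockout libraries were lowest and E14.5 pinna replicate 2 was highest. Around this pair lay a patch of 254 contacts of 12 baits, among them those of Steap1, Steap4 and Sri. A patch is a group of contacts whose ends on both sides lay within 200 kb of those of another contact of the group.

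Replication-dependent histone genes supply the histones for newly made DNA and lie in the Hist1 cluster on chromosome 13, which is split into separate groups. Contacts between these groups made up 4 of the 10 contacts with the highest median score among those listed in all 14 libraries, all with the fragment of Hist1h2bl and Hist1h2ai (chr13:21715488-21717615) 2.03 to 2.04 Mb away. With Hist1h2ab (chr13:23748895-23752063) the scores were 53.4 and 32.6 in FNP, 32.6 and 42.2 in Mx, 70.6 and 32.2 in Md, 33.3 and 63.3 in WT PA2, 33.3 and 36.5 in the knockout, 60.7 and 32.6 in E12.5 pinna, and 70.1 and 33.3 in E14.5 pinna. All conditions overlapped. With Hist1h3b the scores ranged from 10.1 to 62.4 and with the fragment of Hist1h3c and Hist1h2bb from 10.2 to 61.9. In the same region, Hist1h2ab contacted the odorant receptor gene Olfr1359 in 13 libraries (median score 15.4). Identical scores recurred, such as 33.2 in 5 libraries for Hist1h3b, so the order among the strongest contacts is not resolved.

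Among the 10 contacts were also a second pair of Steap1 (median score 32.3), Bbs4, a gene of the BBSome that serves primary cilia, with the fragment of 4930563M21Rik 3.34 Mb away (median 32.0, range 30.6 to 127), 2 pairs of Slitrk3, which codes for a synaptic adhesion protein, with fragments 2.95 Mb away (medians 31.1 and 30.9), and Hapln1, a link protein of the extracellular matrix, with a fragment 3.90 Mb away (median 30.7, range 9.34 to 44.98).

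**Figure D3:**
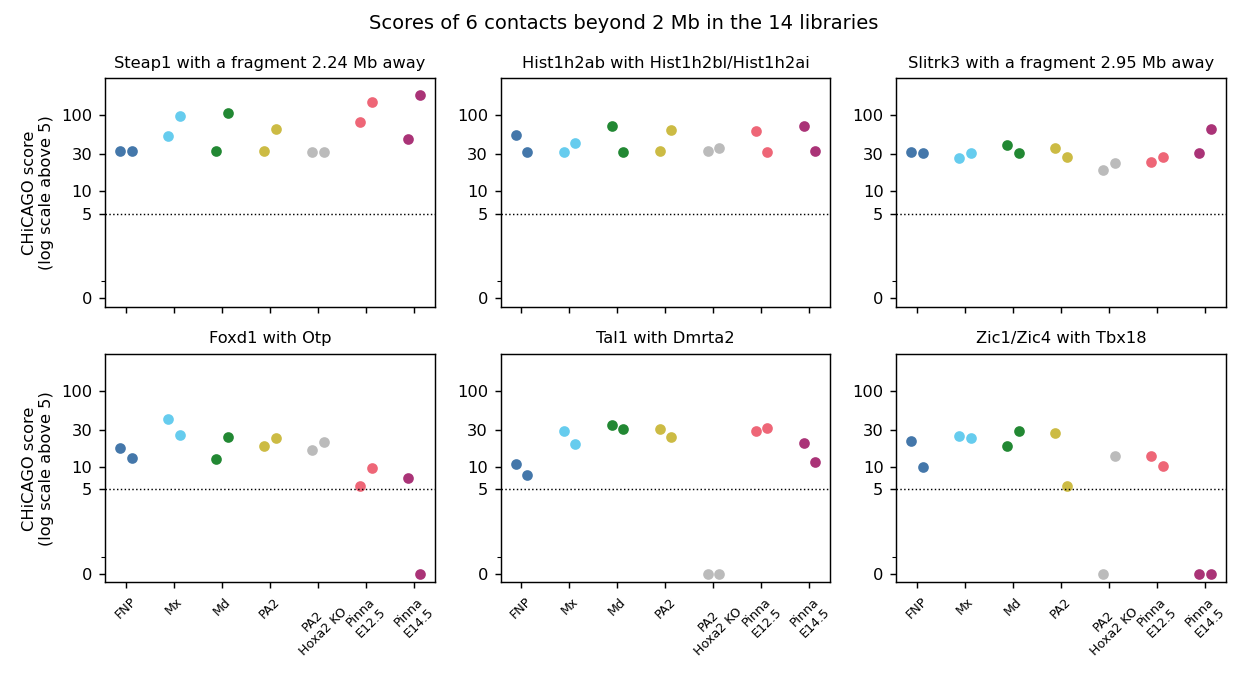
CHiCAGO scores (vertical axis, logarithmic above 5, dotted line at the threshold of 5, unlisted pairs at 0) of 6 contacts in the 2 libraries of each condition (horizontal axis). The 3 contacts of the upper row were listed in all 14 libraries, and the 3 of the lower row, between genes for transcription factors, each missed 1 to 3 libraries.

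The 7975 contacts came from few places. They fell into 1539 patches, 982 of which held 1 contact, while the 29 patches of 50 or more contacts held 39.7% of all contacts. Of 21278 autosomal baits, 2300 (10.8%) were at an end of a contact. The 171 baits with 10 or more contacts accounted for 52.9% of contacts. Chromosome 7 held 1438 contacts (18.03%), chromosome 12 had the most per bait (86.1 contacts per 100 baits), and chromosome 19 the fewest (6.63 per 100 baits). As a result, contacts are not independent of each other, and counts of patches are given beside counts of contacts where these differ.

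The 10 baits with the most contacts were, in this order, Hjurp/Trpm8 (249 contacts), Zik1 (213), Chordc1 (164), Fam19a2 (100), Cpsf3/Itgb1bp1 (97), Gm25970 (81), Fstl5 (75), Slitrk3 (72), Irf2bp1 (61) and Steap1 (50). Hjurp codes for the chaperone that loads the centromeric histone CENP-A, Trpm8 for a cold-sensing channel, and the pair of start sites shares 1 fragment (chr1:88276241-88278577). All its contacts lay 81.9 to 85.3 Mb away near the start of chromosome 1, between positions 3004106 and 6355886, and the 14 libraries together listed 3 pairs of this bait under 2 Mb. The patch to which it belongs, with 13 baits that include Ugt1a1, Mroh2a and Rp1, held 355 contacts, and the libraries listed 95 to 464 pairs within it, the lowest count in E12.5 pinna replicate 1 and the highest in Md replicate 2. Zik1, a gene for a zinc finger protein on chromosome 7, spread its contacts over 24 patches from 2.00 to 49.6 Mb away, whereas Fam19a2, Fstl5 and Steap1 each had a single patch.

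The longest contact joined Cd244a, a receptor of natural killer cells (chr1:171554067-171561635), to a fragment near the start of chromosome 1 (chr1:3454660-3458184), 168 Mb away. Its scores were 0 and 8.40 in FNP, 26.0 and 46.4 in Mx, 17.1 and 21.3 in Md, 0 and 22.0 in WT PA2, 8.94 and 0 in the knockout, and 0 in all 4 pinna libraries. The next 3, between 112 and 118 Mb, were the contacts of Pdx1 with Gm24538, of Crls1 and of Usp42 with Gpn1, each in both libraries of 1 condition. The fifth joined Gm22768 and Gm46401 on chromosome 13 over 106 Mb, was listed in 9 of the 10 E10.5 libraries and in no pinna library, and had the highest score of any contact (902, in knockout replicate 1). The other 4 longest contacts among those in 4 or more conditions were all of the Hjurp/Trpm8 bait, at 84.6 to 84.8 Mb.

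Of all baits, 10.8% had such a contact, and the baits of 5 of 11 gene lists stood at 20.6% or more. Among the baits of replication-dependent histone genes, 20 of 34 (58.8%) were at an end of a contact, although in 2 patches only. The share was 34.4% for homeobox genes (67 of 195 baits, 75 patches), 25.7% for other developmental transcription factors (57 of 222, 81 patches), 24.4% for zinc finger proteins of the Zfp and Zscan type (79 of 324, 120 patches) and 20.6% for neuronal adhesion and synapse genes (27 of 131, 50 patches). The latter made up 4.09% of contacts and 0.746% of near pairs. Olfactory and vomeronasal receptors (10.4%), cytosolic ribosomal proteins (10.4%), microRNAs (11.3%) and signalling ligands and receptors (9.14%) were near the level of all baits, and clustered protocadherins (1 of 24) and keratin and cornified envelope genes (3 of 126) were below it. Neighbouring genes share patches, so no test was made of these shares.

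The strongest contacts of each list, beside those already named, differed in how widely they were shared. Efnb2, an ephrin ligand, contacted a fragment 2.09 Mb away in all 14 libraries (median score 16.2, range 6.14 to 25.8). Zfp52 contacted the fragment of Spaca6 and Mir125a 3.70 Mb away in all 14 libraries (median 23.1, range 5.58 to 51.6). By contrast, the strongest contacts of Pcdhb10 and of Krtap12-1, the latter with Mterf2, were listed only in the 2 knockout libraries.

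**Figure D4:**
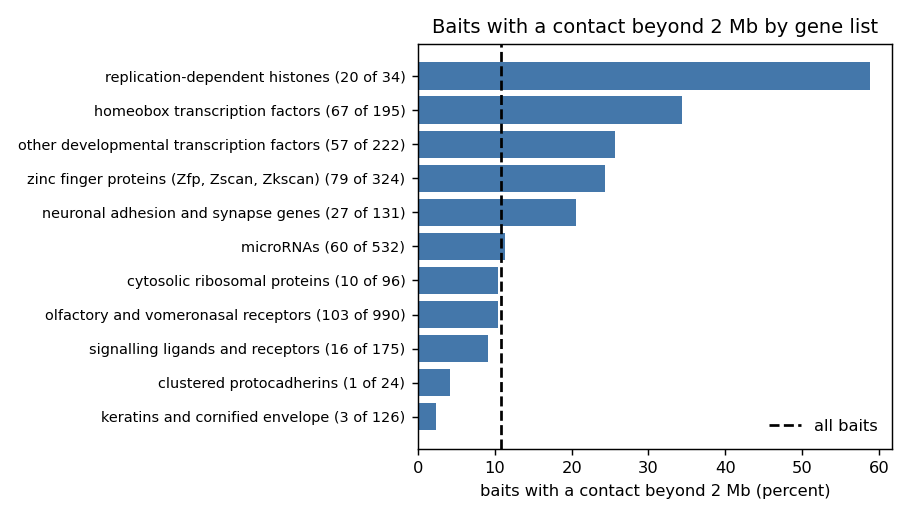
Percent of the baits of each gene list that were at an end of a contact beyond 2 Mb (horizontal axis), with the numbers of baits in brackets and the share of all baits (10.8%) as a dashed line. Histone, homeobox, other developmental transcription factor, zinc finger and neuronal adhesion genes lie above the line.

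Genes for developmental transcription factors also contacted each other. This class was singled out after its values were seen. It comprised 78 contacts with a start site of such a gene at both ends, 0.978% of far contacts as opposed to 0.122% of near pairs. They were longer than other contacts, with a median of 17.3 Mb and 57.7% at 10 Mb or more (19.5% of the rest). The 96 fragments at their ends, not all of which are baits, had a median GC content of 51.1%. It was 51.9% for transcription factor baits without any contact and 46.8% over all baits. Both libraries of FNP listed 24 of the 78 contacts, of Mx 28, of Md 22, of WT PA2 23, of the knockout 13, of E12.5 pinna 14 and of E14.5 pinna 3.

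The contact of this class listed in the most libraries (13) joined Foxd1, a forkhead factor, to Otp, a homeobox factor of hypothalamic neurons, over 3.48 Mb (chr13:98349027-98356955 with chr13:94874553-94878262). Its scores were 17.5 and 12.9 in FNP, 42.2 and 26.1 in Mx, 12.7 and 24.7 in Md, 18.6 and 23.5 in WT PA2, 16.7 and 21.1 in the knockout, 5.55 and 9.65 in E12.5 pinna, and 6.99 and 0 in E14.5 pinna. All 4 pinna scores were below the 10 scores at E10.5. Tal1, a basic helix-loop-helix factor of blood formation, contacted Dmrta2, a DM domain factor of the forebrain, over 5.09 Mb (chr4:115056162-115069246 with chr4:109972684-109979526) with scores of 10.9 and 7.81 in FNP, 29.8 and 20.1 in Mx, 35.3 and 31.3 in Md, 30.9 and 24.2 in WT PA2, 0 and 0 in the knockout, 29.5 and 32.3 in E12.5 pinna, and 20.2 and 11.5 in E14.5 pinna. Only the knockout libraries lacked this pair. They listed 4 and 5 other pairs between the regions of Tal1 and Dmrta2 (start-site fragments with 20 kb added on each side).

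Several others were absent from both E14.5 libraries. The fragment of Zic1 and Zic4, zinc finger factors of the neural plate, contacted Tbx18 over 3.63 Mb in 11 libraries (scores of listed libraries 5.53 to 29.4). Zic2, of the same family, contacted Sox21 over 4.24 Mb in 11 libraries. Zic2 also contacted Pou4f1 over 18.01 Mb in 8 libraries, of which E12.5 pinna replicate 1 was the only one from the pinna.

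Counted in each library, the pairs at 2 Mb or more with such genes at both ends numbered 68 to 103 in the 8 E10.5 WT libraries, 19 and 37 in the knockout, 39 and 58 in E12.5 pinna, and 7 and 16 in E14.5 pinna. The E14.5 counts were below all others, although these 2 libraries listed 14386 and 28573 far pairs in all, in the range of the E10.5 WT libraries (12152 to 44188). Near pairs of the same class numbered 165 to 188 in the E10.5 WT libraries, 151 and 150 in the knockout, 157 and 109 in E12.5 pinna, and 82 and 61 in E14.5 pinna. Stage, tissue and, for E14.5, the enzyme of dissociation change together and cannot be told apart.

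Hox genes, the homeobox genes that set position along the body axis, were at an end of 25 contacts, none of which was listed in more than 5 libraries or scored above 19.1. They comprised 12 of the Hoxa cluster, 4 of Hoxb, 2 of Hoxc and 7 of Hoxd. Of the 12 Hoxa contacts, FNP held 6, Mx 6, Md 2, WT PA2 1, and the knockout and both pinna stages 0. They joined the cluster to Vax2, a homeobox gene of the ventral eye, or fragments beside it (31.5 to 31.6 Mb), except for Hoxa11 with Fezf1 (29.0 Mb). Vax2 with the Hoxa2 fragment scored 17.2 and 5.64 in FNP, 10.9 and 6 in Mx, and 0 in the other 10 libraries. The 3 Hoxd contacts of FNP joined Hoxd11, Hoxd12 and Hoxd13 to Dlx1 or Dlx2 (3.12 to 3.14 Mb), and both libraries of the knockout listed the 2 Hoxc contacts, with Wnt1 (4.19 and 4.21 Mb), and 3 of the 4 Hoxb contacts. The pinna held 0 of the 25.

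Tal1 and Dmrta2 were part of a larger set of contacts on chromosome 4. Cdkn2c, a cell cycle inhibitor of the INK4 family, lies beside Dmrta2, and the INK4 genes Cdkn2a and Cdkn2b lie 20.4 Mb away. With 20 kb added on each side of the start-site fragments, the region of Cdkn2a and Cdkn2b and that of Cdkn2c were joined by 20 contacts. In the libraries they were joined by 13 to 22 listed pairs in FNP, Mx and Md, 8 and 12 in WT PA2, 5 and 7 in the knockout, 2 and 4 in E12.5 pinna, and 0 and 0 in E14.5 pinna. Tal1 and Cdkn2c (5.40 Mb) were joined by 8 to 11 pairs in FNP, Mx and Md, 10 and 7 in WT PA2, 3 and 4 in the knockout, 5 and 5 in E12.5 pinna, and 0 and 0 in E14.5 pinna. Tal1 and Dmrta2 were joined by 5 to 10 pairs in the E10.5 WT libraries, 4 and 5 in the knockout, 5 and 5 in E12.5 pinna, and 2 and 6 in E14.5 pinna. Foxd1 and Otp were joined by 7 to 10 pairs at E10.5 in WT libraries, 5 and 6 in the knockout, 8 and 5 in E12.5 pinna, and 1 and 0 in E14.5 pinna.

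A patch on chromosome 11 had fewer listed pairs in the pinna than at E10.5, where stage and tissue change together and cannot be told apart. It joined Rnu2-10, a gene for the U2 snRNA (chr11:101657300-101661361), and its neighbours to Rnu3b3, Rnu3b2 and Tex14, where genes for U3 small nucleolar RNA lie, 14.2 Mb away, with 111 contacts of 16 baits. The number of listed pairs within it was 131 and 191 in FNP, 141 and 148 in Mx, 90 and 169 in Md, 70 and 85 in WT PA2, 38 and 49 in the knockout, 2 and 3 in E12.5 pinna, and 3 and 3 in E14.5 pinna. Of the 29 patches of 50 or more contacts, this was the only one whose 4 pinna counts were all below the 8 counts of E10.5 WT libraries, and no patch had all pinna counts above them. Near pairs of its 16 baits numbered 116 to 146 in E10.5 WT libraries, 117 and 115 in the knockout, and 36 to 61 in the pinna. U2 and U3 genes have near-identical copies, so reads in them could be split or misplaced, and the effect of this on the scores was not tested.

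**Figure D5:**
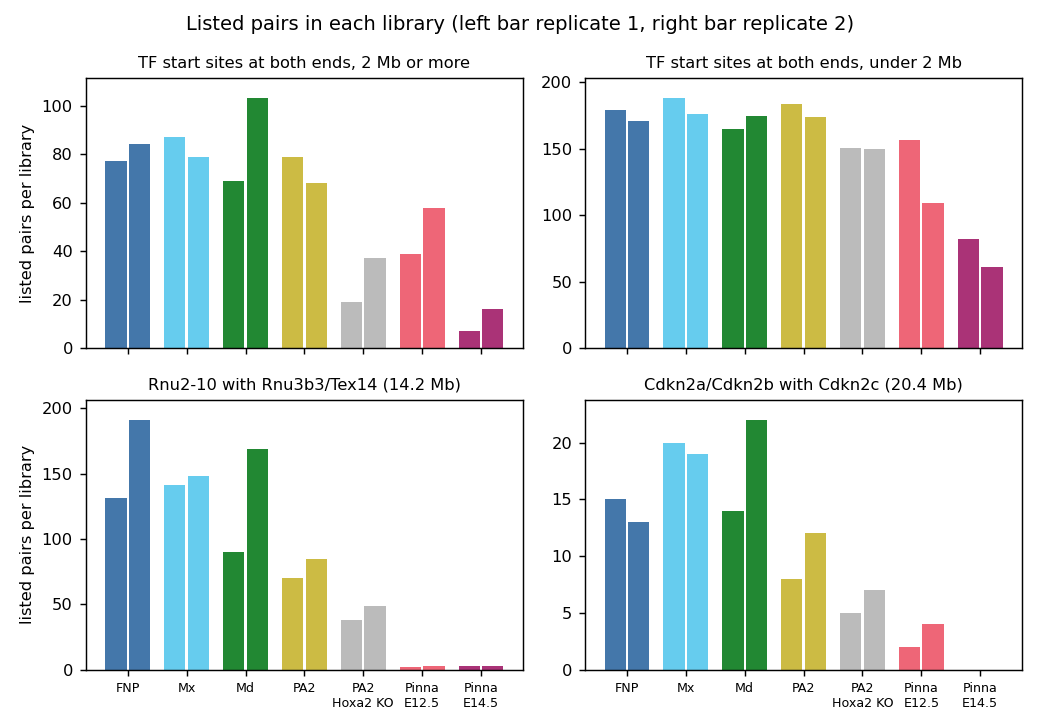
Number of listed pairs (vertical axes) in each library (left and right bars are replicates 1 and 2 of a condition) for pairs with developmental transcription factor (TF) start sites at both ends at 2 Mb or more and under 2 Mb, for the Rnu2-10 patch on chromosome 11 and for the pairs between Cdkn2a or Cdkn2b and Cdkn2c. The E14.5 pinna libraries have 7 and 16 far pairs of the first kind, against 68 to 103 in E10.5 WT libraries.

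For the shares of pairs, no comparison of groups passed the threshold (two-sided exact permutation tests over libraries, adjusted over 8 comparisons). Pairs at 2 Mb or more made up 14.3% ± 9.81 (SD, n = 6) of same-chromosome pairs in the Hoxa2-expressing libraries (WT PA2 and pinna) and 16.2% ± 5.99 (n = 6) in the libraries without Hox expression (FNP, Mx and Md, here Hox-negative; exact p = 0.693, adjusted p = 0.693), and without Md replicate 1 the difference turned to 0.207 percentage points. WT PA2 alone had 9.87% ± 1.48 (n = 2; exact p = 0.179 against the Hox-negative libraries, adjusted p = 0.476), the pinna 16.6% ± 11.8 (n = 4; exact p = 0.667 against WT PA2, adjusted p = 0.693) and the knockout 6.39% ± 1.41 (n = 2; exact p = 0.333 against WT PA2, the smallest possible with 2 against 2 libraries).

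Baits of developmental transcription factors were at 3.89% ± 0.122 (SD, n = 2) of the far pairs of WT PA2. The 4 pinna libraries had 3.49% and 1.80% (E12.5), 1.77% and 1.62% (E14.5), all below both WT PA2 libraries, with an exact p = 0.0667, which is the smallest that 4 against 2 libraries allow, and an adjusted p = 0.429. The share was 3.09% ± 0.574 (n = 6) in the Hox-negative and 2.74% ± 1.12 (n = 6) in the Hoxa2-expressing libraries (exact p = 0.504, adjusted p = 0.672), and 3.48% ± 0.0673 (n = 2) in the knockout (exact p = 0.333 against WT PA2). WT PA2 exceeded every Hox-negative library, with an exact p = 0.107 and an adjusted p = 0.429.

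Scores of single pairs were compared with limma over all same-chromosome pairs after an inverse hyperbolic sine (asinh) transform, with unlisted pairs at 0. Between the Hoxa2-expressing and the Hox-negative libraries, 230 of 276334 pairs (0.0832%) differed at an adjusted p below 0.05. All Hox-negative libraries were of E10.5, whereas most Hoxa2-expressing ones were of the later pinna. Hoxa2 expression, stage and tissue therefore cannot be told apart in this contrast. The libraries of each side were fitted as replicates of a single group, without a mean per condition. Of the contacts, 6993 passed the filter of 2 listing libraries, and 7 of these were higher (0.0261% of all pairs were) and 26 lower (0.0572% of all pairs) in the Hoxa2-expressing libraries. The median difference was -0.07 over the contacts and -0.01 over all pairs. The rule for contacts itself required scores in both libraries of a condition, so that nothing is read from the share of contacts called. A contact that passed the filter through 1 group alone had to differ, and its values are given without a p.

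In 23 contacts the groups did not overlap (0.397% of all pairs). Ranked by size of difference, the 10 leading called contacts of this kind came from 3 loci. Rnu2-10 and a fragment 14.2 Mb away (chr11:87453999-87461922) scored 20.3 and 24.8 in FNP, 19.3 and 19.3 in Mx, 33.6 and 14.4 in Md, and 0 in all 6 Hoxa2-expressing libraries (difference -3.75 ± 0.59 SE on the asinh scale). The Rnu3b3 bait and a fragment 14.2 Mb away scored 27.8 to 59.3 in the Hox-negative libraries, 14.7 and 23.3 in WT PA2 and 0 in the pinna (difference -3.07 ± 0.44, limma adjusted p = 7.57e-05). Rnu2-10 with Rnu3b2 (-3.26 ± 0.55), Dhx8 with Tex14 (-3.24 ± 0.68) and Tex14 with a fragment beside Rnu2-10 (-3.08 ± 0.60) belonged to the same patch, in which 14 of 107 tested contacts were lower and none was higher. On chromosome 4, Cdkn2c and a fragment beside Cdkn2a 20.4 Mb away scored 9.82 and 20.8 in FNP, 20.3 and 5.72 in Mx, 24 and 10.1 in Md and 0 in all Hoxa2-expressing libraries (-3.29 ± 0.66). Tal1 with Cdkn2a, 25.8 Mb apart, scored 8.74 to 23.4 in the Hox-negative libraries and 0 in the Hoxa2-expressing ones (-3.18 ± 0.67), although other pairs joined these loci in Hoxa2-expressing libraries. The regions of Tal1 and Cdkn2a were joined by 10 to 19 listed pairs in the Hox-negative libraries, 4 and 17 in WT PA2, 2 and 6 in E12.5 pinna, and 0 and 3 in E14.5 pinna. On chromosome 1, Hjurp/Trpm8 with a fragment 85.2 Mb away scored 7.71 to 48.0 and 0 (-3.38 ± 0.66). Of 391 tested contacts with a developmental transcription factor bait, 5 were lower and none higher. For this count and that of the chromosome 11 patch, the shares over all pairs were 0.0572% lower and 0.0261% higher. The count of all pairs called lay between 104 and 133 without 1 of the FNP, Mx or E12.5 pinna libraries, Md replicate 1 or E14.5 pinna replicate 1, and was 46 with unlisted pairs set to 5. With a listing in at least 4 libraries it was 13, of which 8 were higher and 5 lower, and of the contacts 0 were higher and 3 lower. The contacts called higher numbered 0 without E12.5 pinna replicate 2 or either E14.5 pinna library. With unlisted pairs set to 5, 0 contacts were higher and 7 lower.

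Between the pinna and WT PA2, 2471 of 156770 pairs (1.58%) differed, and 4536 contacts passed the filter of 4 listing libraries. Of these, 40 were higher in the pinna (0.714% of all pairs were) and 36 lower (0.862% of all pairs). The median difference was 0.50 over the contacts and -0.02 over all pairs. Of 266 tested contacts with a transcription factor bait, 4 were higher (0.714% of all pairs were) and 13 lower (0.862% of all pairs). In 563 contacts the groups did not overlap (15.6% of all pairs). Of the 10 leading called contacts, 6 were of the chromosome 11 patch and lower in the pinna, such as Tex14 with a fragment beside Rnu2-10, at 46.1 and 27.7 in WT PA2 and 0 in all pinna libraries (-4.27 ± 0.39, limma adjusted p = 0.00248), and 1 joined Cdkn2a and Cdkn2c, at 26.4 and 14.6 in WT PA2 and 0 in the pinna (-3.67 ± 0.76).

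The other 3 leading contacts were higher in the pinna. Zfhx4, a zinc finger and homeobox factor, with a fragment 2.08 Mb away (chr3:7305077-7306850) scored 0 in both WT PA2 libraries, 18.6 and 36.3 in E12.5 pinna and 16.7 and 41.1 in E14.5 pinna (3.96 ± 0.46, limma adjusted p = 0.00740). It was listed at 5.54 to 10.0 in Mx and Md and was unlisted in FNP and the knockout. Gm25656 with a fragment 2.81 Mb away scored 0 in WT PA2 and 13.8 to 31.7 in the pinna (3.74 ± 0.72, limma adjusted p = 0.0310). Fstl5, a secreted follistatin-like protein, with a fragment 2.84 Mb away scored 0 in WT PA2 and 11.4 to 31.7 in the pinna (3.65 ± 0.44, limma adjusted p = 0.00929), but all other libraries listed it also, at 5.26 to 30.6. Without WT PA2 replicate 1 the called pairs numbered 728 (15 contacts higher and 14 lower), without WT PA2 replicate 2 753 (18 and 11), and with unlisted pairs set to 5 they numbered 279. Without 1 of the 4 pinna libraries, 14 to 24 contacts were higher. With unlisted pairs set to 5, 25 contacts were higher and 15 lower. The filter set the balance: with a listing in at least 2 libraries, 600 contacts were higher and 170 lower, and over all pairs 6761 were higher and 3689 lower.

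Between the knockout and WT PA2, 3311 of 156770 pairs (2.11%) differed. Of the 4536 contacts tested, 15 were higher in the knockout (0.362% of all pairs were) and 64 lower (1.75% of all pairs), with a median difference of -0.00363 over the contacts and -0.09 over all pairs. In 1169 contacts the groups did not overlap (35.8% of all pairs). The 10 leading called contacts were all lower, at 0 in both knockout libraries. They included Tal1 with Dmrta2 (-4.00 ± 0.22, limma adjusted p = 7.48e-05) and with Cdkn2c, at 18.8 and 19.6 in WT PA2 (-3.65 ± 0.46, limma adjusted p = 0.00190), Gm25970 with a fragment 5.88 Mb away (-3.93 ± 0.44, limma adjusted p = 0.00124), Zik1 with Zfp78 (-3.74 ± 0.78, limma adjusted p = 0.0379), Mttp, a lipid transfer protein, with Bdh2 (-3.71 ± 0.35 SE, limma adjusted p = 0.000680), and Tex14, Gm23061, Gm26263, Chordc1 and Mir7-2 with fragments 2.25 to 14.2 Mb away. Other listed pairs still joined the regions of Tal1 and Dmrta2 (4 and 5) and of Tal1 and Cdkn2c (3 and 4) in the knockout libraries. The knockout libraries also listed the fewest same-chromosome pairs (111228 and 118200), and the part of this in the lower scores was not tested. With unlisted pairs set to 5, 119 pairs were called, and of the contacts 4 were higher and 7 lower. Not all of the 10 leading contacts can thus have kept their call in that setting. The filter set the direction: with a listing in at least 2 libraries, which admits contacts that the knockout libraries alone listed, 826 contacts were higher and 169 lower, and over all pairs 7546 were higher and 4300 lower. WT PA2 libraries are shared by the last 2 comparisons, so their results are not independent.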

How the data were processed

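Promoter capture Hi-C was measured in 14 libraries, 2 replicates of each of 7 conditions. Per the submitters' processing notes and the study's methods, the authors converted base calls with bcl2fastq 2.17, mapped read pairs to mm10 (GRCm38) with HiCUP, and deposited for each library the pairs of HindIII fragments with their CHiCAGO score, cut at 5. The files hold no reads, so the depth and any interval based on counts are unknown, and pairs below the threshold are absent from the lists.

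From the deposited scores, pairs were matched over libraries by their fragments, and distances were taken between fragment midpoints. Members and gene lists were chosen with earlier results of these data known. Named contacts are the 10 in the most libraries (ties by median score), the 5 longest, the 5 longest in 4 or more conditions, the highest of each gene list, 3 on either side of 2 Mb, up to 10 per limma comparison with the largest difference among called contacts whose groups did not overlap, the 10 baits with the most contacts, and all Hox contacts; some of these are not reported here. Contacts with transcription factor genes at both ends, patches and the chromosome 4 loci were chosen after their values were seen, and counts over them got no test. Single contacts among them were tested with all other pairs in limma. Groups were compared with two-sided exact permutation tests, and scores with limma 3.58.1 (R 4.3.3) on asinh(score), unlisted pairs at 0, with Benjamini-Hochberg adjustment. Pairs had to be listed in at least 2 libraries in the contrast between Hoxa2-expressing and Hox-negative libraries, and in at least 4 for the others, which were fitted with a mean per condition over all 14 libraries. The study's methods describe the 2 replicates of each condition as biologically independent. The labels do not say which embryos or litters they came from, so p-values measure only the spread between these libraries, which may be technical in part. For a simulation, the scores of each pair were shuffled over libraries and 200 of 40000 pairs were raised by 2 on the asinh scale. Unlisted values were raised too, to levels that lists cut at 5 cannot hold. In the comparisons of Hoxa2 expression, knockout and pinna, 57, 13 and 17 were recovered with 0, 3 and 9 false calls. Of unraised pairs, 5.09%, 6.79% and 4.96% had a limma p below 0.05. False calls thus exceeded the share that the adjustment aims for in the last 2 comparisons. Same-numbered replicates did not deviate together (r between 0.001 and 0.0554 over 21 pairs of conditions), so libraries were not paired. Other tools were Python 3.11.15, pandas 2.3.3, NumPy 2.4.6, SciPy 1.17.1 and matplotlib 3.10.9. Promoter sequences are from RefSeq (GRCm38.p6).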

Additional observations from a re-analysis of the deposited data

Results flagged for a closer look

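Within the groups, 9 of 45 sets of values had a library far from the others. Most sets were scores of contacts chosen for large differences, and some were at 0 in all other libraries of the group. The usual rate of 1 in 20 by chance therefore does not apply, and nothing is read from the number. E12.5 pinna replicate 2 had 33.4% of its same-chromosome pairs at 2 Mb or more, far above the other Hoxa2-expressing libraries. E12.5 pinna replicate 1 had transcription factor baits at 3.49% of its far pairs, above the other pinna libraries, and 2 pairs in the chromosome 11 patch where the other pinna libraries had 3. A Hjurp/Trpm8 contact scored 48.02 in Mx replicate 1, highest of the Hox-negative libraries. In WT PA2 replicate 2, Rnu2-10 with Rnu3b2 scored 7.95, a Cdkn2c contact 5.68 and a Tal1 contact 5.9, where the other Hoxa2-expressing libraries were at 0. A Tex14 contact scored 5.29 in WT PA2 replicate 1, where the other Hoxa2-expressing libraries were at 0, and 35.99 in Mx replicate 2, above the other Hox-negative libraries. Outside the comparisons, pairs that join different chromosomes were shared by both WT PA2 libraries in 1198 cases, 27.2% of the shorter list.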

How the results depend on the processing

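The number of contacts was 1577 at a score threshold of 10, 2366 at a minimum of 5 Mb and 22386 at a minimum of 1 Mb, and 6725 to 7608 when 1 condition was left out. Against near pairs of 0.5 to 2 Mb, far minus near was 4.38 percentage points for a bait at the other end and -4.75 for a transcription factor bait, both now past the threshold. The differences in GC content and length shrank there to -0.563 points and -127 bp. At a score threshold of 10, the difference for a bait at the other end turned to -3.91. Without the Md and E12.5 pinna conditions, where 5 conditions cannot reach an exact p below 0.0625, the differences were -38.4 points (replicate sharing), 1.079 (median score), -2.88 points (GC content) and -467.3 bp (length). Without the knockout, chosen after seeing the data, 6753 contacts remained. The far share of Hoxa2-expressing minus Hox-negative libraries ranged from -5.65 to 0.207 points when 1 library was left out, positive without Md replicate 1.

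Pairs called by limma between Hoxa2-expressing and Hox-negative libraries numbered 13 with a listing in at least 4 libraries, 46 with unlisted pairs at 5, 148 with equal numbers of top-scoring pairs, 16997 in the fit of condition means, and 104 to 268 with 1 library left out. For the knockout they numbered 11846 with a listing in at least 2 libraries (mostly higher, in place of mostly lower), 119 with unlisted pairs at 5, 2074 with equal numbers, and 2745 to 4670 with 1 library left out. For the pinna they numbered 10450, 279 and 728 to 3347 under the first, second and last of these. The cause was not tested. With the replicate block, the counts were 283, 3113 and 1954, and no call of a group share changed.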
